A study of Mus musculus with 2 samples.

Results

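The genes described here are the 42 members of the mouse annotation that are encoded by mitochondrial DNA or that copy it in the nucleus, out of 55536 annotated genes. The mitochondrial genes were chosen by their name, which starts with mt-, and comprise 13 mRNAs, 2 ribosomal RNAs (rRNAs) and 22 transfer RNAs (tRNAs), all 37 of them on the mitochondrial chromosome. The 5 nuclear copies, Gm28661, Gm10925, Gm28437, Gm28438 and Gm29216, are unprocessed pseudogenes on chromosome 1. Of these, 4 were already known to stand among the most abundant genes of the same libraries, so their high level is a description and not a finding. All 37 mitochondrial genes and the nuclear copies have 1 annotated transcript each.

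The libraries were made from total RNA of adrenal glands of adult male mice aged 8 to 10 months from a cross of 5xFAD and CAST mice, with 300 ng of RNA, reduction of ribosomal RNA, added spike-in RNA and a strand-specific kit. There are 2 libraries, replicate 2 and replicate 1, and they form 1 group, so no condition was compared and no p-value is given. The 5xFAD line carries transgenes driven in neurons by the Thy1 promoter, and CAST is a strain derived from wild mice. The labels do not say whether each animal carried the transgenes or which strain was the mother, and all levels rest on the mm10 sequence. The libraries are labelled as biological replicates with separate tissue samples but share a donor entry, so their spread may be partly technical. Summed counts over annotated genes were 26322473 in replicate 2 and 29204658 in replicate 1. All 11 markers of adrenal cortex and chromaffin cells were detected, at 126 to 5825 TPM (a level scaled by transcript length and by the sum over all transcripts).

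Mitochondrial DNA is transcribed from both strands as long precursors, and most mRNAs and rRNAs are released when the tRNAs between them are cut out. The mRNAs encode membrane subunits of respiratory complexes I, III and IV and of ATP synthase, while every other protein of the organelle is made from nuclear genes. In the adrenal cortex, mitochondria also hold the first and last enzymes of steroid synthesis, which draw electrons from their own short transport chain. Fragments of mitochondrial DNA have entered nuclear chromosomes during evolution, and a recent insertion can still be nearly identical to the organelle's own genes.

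The nuclear copies all lie on the minus strand of chromosome 1 in a block of 7 annotated pseudogenes, at chr1:24611535-24616197 (mm10), 4663 bases long. In the same order and orientation, the matching stretch of the mitochondrial chromosome runs from chrM:6381-11042, over 4662 bases. Read along the minus strand, Gm29216 matches the end of mt-Co1, Gm28661 matches mt-Co2, Gm10925 matches mt-Atp6, Gm28437 matches mt-Co3 and Gm28438 matches mt-Nd3. Gm10222 and Gm28439, which match mt-Nd4l and mt-Nd4 over all of their 294 and 876 bases, complete the block but lie outside the rule.

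Stretches at which the annotated transcript of each copy differs from that of its mitochondrial gene are printed here. Within the annotation, such bases are the few that could place a read. For Gm28661, Gm10925 and Gm28437 they only mark where the annotated copy ends, and the nuclear sequence beyond that end was not examined. The transcript sequences are those of GENCODE M21 (mm10), written 5′ to 3′ on the strand of the gene, and capitals mark the bases that differ or that only the mitochondrial transcript has. Gm29216 spans 492 bases and pairs with bases 1054 to 1545 of mt-Co1, with 6 mismatches that all fall within its first 13 bases. Counting from base 1 of the mt-Co1 transcript, with the mt-Co1 base first, these are T1056A, C1057T, A1059G, A1060G, C1062A and A1066T. The stretches of the copy (chr1:24616158-24616197) and of mt-Co1 (chrM:6381-6420) that hold them are
Gm29216: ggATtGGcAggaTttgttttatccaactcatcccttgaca
mt-Co1: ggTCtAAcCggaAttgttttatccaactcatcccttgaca
Gm28661, at 681 bases, is identical to mt-Co2 and lacks only the 3 bases that end it. The 3′ ends of Gm28661 (chr1:24614885-24614924) and mt-Co2 (chrM:7654-7696) are
Gm28661: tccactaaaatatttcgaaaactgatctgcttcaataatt
mt-Co2: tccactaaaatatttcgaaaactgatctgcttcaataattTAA
Gm10925, at 678 bases, is likewise identical to mt-Atp6 up to the last 3 bases. The 3′ ends of Gm10925 (chr1:24613974-24614013) and mt-Atp6 (chrM:8565-8607) are
Gm10925: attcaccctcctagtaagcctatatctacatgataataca
mt-Atp6: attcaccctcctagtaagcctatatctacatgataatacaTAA
Gm28437, at 783 bases, is identical to mt-Co3 up to the last base. The 3′ ends of Gm28437 (chr1:24613189-24613228) and mt-Co3 (chrM:9350-9390) are
Gm28437: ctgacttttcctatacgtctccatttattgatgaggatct
mt-Co3: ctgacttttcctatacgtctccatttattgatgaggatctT
Gm28438, at 345 bases, differs from mt-Nd3 by the substitution T3C, counted from base 1 of mt-Nd3. Its annotated transcript also lacks the last 3 bases of mt-Nd3, which are not printed. The 5′ ends of Gm28438 (chr1:24613080-24613119) and mt-Nd3 (chrM:9459-9498) are
Gm28438: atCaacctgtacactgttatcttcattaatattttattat
mt-Nd3: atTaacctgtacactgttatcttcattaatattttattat

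To see how much of each transcript can place a read at all, every window of 101 bases was looked up in all transcripts of the annotation. Of the copies, 3 had no window of their own (Gm28661, Gm10925 and Gm28437), Gm28438 had 3 of 245 and Gm29216 had 13 of 392. The partners of these copies were nearly as poor in unique sequence, with 3 of 584 windows in mt-Co2, 3 of 581 in mt-Atp6, 1 of 684 in mt-Co3 and 6 of 248 in mt-Nd3. mt-Co1 kept 1002 of 1445 windows, because its copy covers only the 3′ end. Of the 15 mitochondrial mRNAs and rRNAs, 7 were unique in every window among annotated transcripts: mt-Rnr1, mt-Rnr2, mt-Nd1, mt-Atp8, mt-Nd5, mt-Nd6 and mt-Cytb. Of these, mt-Atp8 (chrM:7766-7969) lies within the mitochondrial stretch that the block on chromosome 1 matches. No copy of it is annotated there, and the sequence between the annotated copies was not examined. Gm10222 left 3 of 197 windows of mt-Nd4l unique and Gm28439 left 502 of 1278 of mt-Nd4, while mt-Nd2 shared 29 of 938 windows with Gm13339 on chromosome 2. Also on chromosome 2, Gm13340 shares 77 windows with mt-Co1 and Gm13341 shares 86 with mt-Co2, and these pseudogenes held only 55.19 and 48.7 counts in replicate 2 and 76.16 and 62.26 in replicate 1.

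In the gene table, members together held 10.3% of all gene counts in replicate 2 and 10.4% in replicate 1. These are bulk samples, in which fewer cells of a type and less RNA per cell cannot be told apart. The 13 mRNAs held 2.82% in replicate 2 and 2.64% in replicate 1 (mean 2.73% ± 0.128, SD, n = 2). The 2 rRNAs held 6.63% in replicate 2 and 7.03% in replicate 1 (6.83% ± 0.281), after a step of the library preparation that reduces ribosomal RNA. The nuclear copies held 0.865% in replicate 2 and 0.722% in replicate 1 (0.794% ± 0.101). Exact Clopper-Pearson 95% intervals, which cover counting error only, were 2.81% to 2.83% for the mRNAs, 6.62% to 6.64% for the rRNAs and 0.862% to 0.869% for the copies in replicate 2. In replicate 1 they were 2.63% to 2.64%, 7.02% to 7.04% and 0.719% to 0.725%, so counting error is far smaller than the difference between libraries. The copies made up 92.9% and 94.1% of all counts assigned to the 2642 unprocessed pseudogenes of the annotation in replicates 2 and 1.

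The rRNAs were the most abundant members per length. mt-Rnr1, the RNA of the small ribosomal subunit (chrM:70-1024), was at 32400 TPM in replicate 2 and 33620 TPM in replicate 1 (33010 ± 869, SD, n = 2). mt-Rnr2, the RNA of the large subunit (chrM:1094-2675), was at 27370 TPM in replicate 2 and 28980 TPM in replicate 1 (28170 ± 1142). They stood at rank 4 and rank 5 among all genes in both libraries. The ribosome holds 1 of each, and mt-Rnr1 over mt-Rnr2 was 1.18 in replicate 2 and 1.16 in replicate 1. These levels follow a step that reduces ribosomal RNA, and its effect on each rRNA was not tested. In the second quantifier, a separate estimate from the same reads, the ratio was 0.977 in replicate 2 and 0.941 in replicate 1, so which of them is higher depends on the quantifier.

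Complex I, which passes electrons from NADH to ubiquinone, takes 7 of the mRNAs, all for core subunits of its membrane arm. mt-Nd1, next to the quinone site, was at 3029 TPM in replicate 2 and 2768 TPM in replicate 1 (2899 ± 185). The subunits that resemble ion antiporters came lower, with mt-Nd2 at 2040 and 1813 TPM, mt-Nd4 at 2126 and 1873 TPM and mt-Nd5 at 1433 and 1238 TPM in replicates 2 and 1. These 4 genes were each higher in replicate 2. The small subunit mt-Nd4l was at 1887 TPM in replicate 2 and 2218 TPM in replicate 1, and mt-Nd3 at 1343 TPM in replicate 2 and 1036 TPM in replicate 1. mt-Nd4l was lower in replicate 2 and mt-Nd3 higher, and both rest on few unique windows.

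mt-Nd6 (chrM:13552-14070) was the lowest mRNA of the gene table, and it is the only one encoded on the other DNA strand. It was at 239 TPM in replicate 2 and 252 TPM in replicate 1 (245.5 ± 9.61), at rank 218 and rank 199 among all genes. Its level was 0.167 of that of mt-Nd5 in replicate 2 and 0.204 in replicate 1, and mt-Co1 exceeded it 28.0-fold in replicate 2 and 24.8-fold in replicate 1. Its annotated 3′ end overlaps mt-Nd5 by 14 bases on the opposite strand, and no window of 101 bases is shared on the transcript strand.

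Complex III, which passes electrons on to cytochrome c, takes a single mitochondrial mRNA, mt-Cytb (chrM:14145-15288), its haem-carrying subunit. mt-Cytb was at 3618 TPM in replicate 2 and 3261 TPM in replicate 1 (3440 ± 252). It was unique in every window and exceeded mt-Nd5, also unique, 2.52-fold in replicate 2 and 2.63-fold in replicate 1. The libraries therefore differed less in this ratio than in either level.

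Complex IV, which hands electrons to oxygen, takes 3 of the mRNAs. mt-Co1, the catalytic subunit (chrM:5328-6872), was the highest mRNA of the gene table, at 6685 TPM in replicate 2 and 6265 TPM in replicate 1 (6475 ± 297). mt-Co2, which accepts electrons from cytochrome c (chrM:7013-7696), was at 1414 TPM in replicate 2 and 1638 TPM in replicate 1 (1526 ± 159). mt-Co3, a structural subunit (chrM:8607-9390), was at 2989 TPM in replicate 2 and 3346 TPM in replicate 1 (3167 ± 252). Taken alone, mt-Co2 stood at rank 11 and rank 10 of the 13 mRNAs in replicates 2 and 1, among the lowest.

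ATP synthase takes 2 mRNAs, which lie on 1 shared transcript and overlap by 43 bases. mt-Atp6, the subunit of the proton channel, was at 3350 TPM in replicate 2 and 2647 TPM in replicate 1 (2998 ± 497). mt-Atp8, a small subunit of the peripheral stalk, was at 2328 TPM in replicate 2 and 2361 TPM in replicate 1 (2345 ± 23.6). The overlap (chrM:7927-7969) runs from the start codon of mt-Atp6 to the stop codon of mt-Atp8, both in capitals, and is shown because it is the only sequence these genes share.
mt-Atp8 and mt-Atp6: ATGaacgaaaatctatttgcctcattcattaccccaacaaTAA

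**Figure D1:**
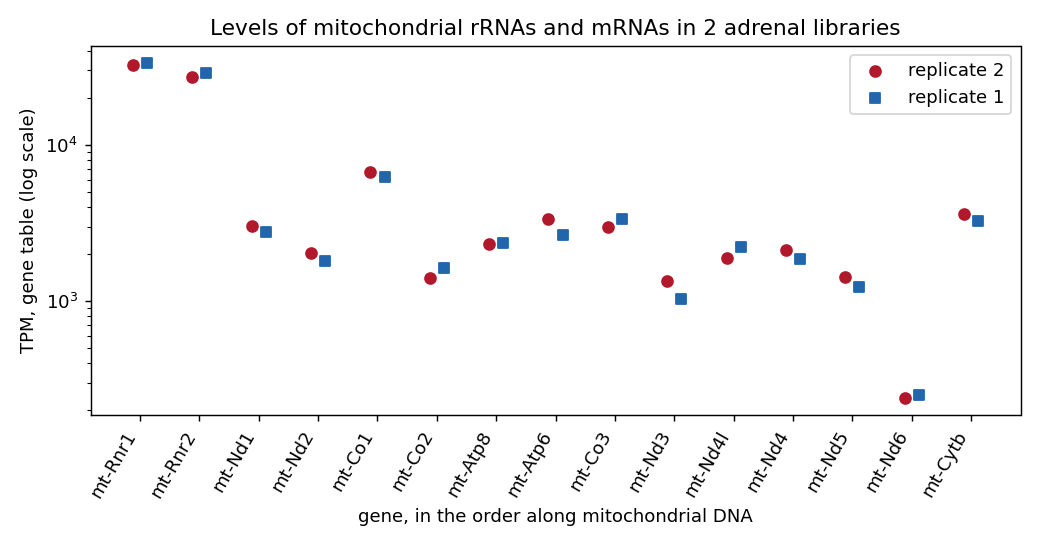
Level in TPM of the gene table (vertical axis, log scale) for the 2 rRNAs and 13 mRNAs in their order along mitochondrial DNA, with circles for replicate 2 and squares for replicate 1. The rRNAs lie highest, between 27370 and 33620 TPM, mt-Co1 leads the mRNAs with 6685 and 6265 TPM, and mt-Nd6 lies lowest with 239 and 252 TPM.

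The tRNAs, which read the mitochondrial code and mark most cutting sites of the precursors, could not be measured. All 22, of 59 to 75 bases, had a count of 0 in both libraries. In the gene table, all 28637 entries of up to 100 bases had an effective length of 0 and a count of 0, so a count of 0 there puts no upper limit on a tRNA. In the second quantifier, none of the 1068 transcripts of up to 75 bases received a count in either library. The zeros are thus shared with every entry of their length and say nothing about the tRNA content of the gland.

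The copies were listed at levels like those of the mitochondrial mRNAs. Gm28661 was at 5895 TPM in replicate 2 and 4861 TPM in replicate 1 (5378 ± 731), at rank 10 and rank 11 of all genes. Gm10925 was at 5109 TPM in replicate 2 and 4838 TPM in replicate 1 (4973 ± 191), at rank 12 in both. Gm28437 was at 2592 TPM in replicate 2 and 1578 TPM in replicate 1 (2085 ± 716). Thus Gm28661 was listed above mt-Co2 in both libraries and Gm10925 above mt-Atp6, while Gm28437 was listed below mt-Co3. Gm29216 was at 1928 TPM in replicate 2 and 1702 TPM in replicate 1 (1815 ± 160), and Gm28438 was listed at 0 in both. The nearest annotated genes on either side of the block, were far lower: Tubb4b-ps2, a processed pseudogene, was at 0.05 and 0.06 TPM and Lmbrd1, a protein-coding gene, at 30.54 and 30.16 TPM in replicates 2 and 1.

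Within each pair the gene table divided the counts unevenly. Gm28661 held 87626 counts beside 21122 of mt-Co2 in replicate 2, which is 80.6% of the pair, and 80891 beside 27402 in replicate 1, which is 74.7% (mean 77.7% ± 4.17, SD, n = 2). Gm10925 held 75539 counts beside 49787 of mt-Atp6 in replicate 2, or 60.3%, and 80089 beside 44043 in replicate 1, or 64.5% (62.4% ± 2.97). Gm28437 held 45282 counts beside 52300 of mt-Co3 in replicate 2, or 46.4%, and 30875 beside 65547 in replicate 1, or 32.0% (39.2% ± 10.2). The division between identical sequences thus moved between libraries and did so most for Gm28437, with a higher share in replicate 2 for Gm28661 and Gm28437 and a lower one for Gm10925. Gm29216, which has 13 windows of its own, held 19332 counts beside 247129 of mt-Co1 in replicate 2, or 7.25%, and 19108 beside 259290 in replicate 1, or 6.86% (7.05% ± 0.276). Gm28438 held none of the 8519 and 7358 counts of its pair with mt-Nd3 in replicates 2 and 1.

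The second quantifier divided the same pairs otherwise. It gave Gm10925 a share of 1.36% in replicate 2 and 3.18% in replicate 1, and Gm29216 a share of 0.209% in replicate 2 and 1.68% in replicate 1. It gave Gm28661 85.7% in replicate 2 and 82.0% in replicate 1, and Gm28437 51.4% in replicate 2 and 32.3% in replicate 1. Gm28438, listed at 0 in the gene table, held 3.17% of its pair in replicate 2 and 7.78% in replicate 1. Both quantifiers therefore left most of the mt-Co2 pair and a large part of the mt-Co3 pair with the copy, and they disagreed on the mt-Atp6 and mt-Co1 pairs. The gene table also holds a posterior mean, the average count over repeated draws of the assignment, and by it the copies Gm28661, Gm10925 and Gm28437 held 58.2%, 57.5% and 50.4% of their pairs in replicate 2 and 58.1%, 61.1% and 46.4% in replicate 1. By that estimate the pairs of identical sequence lay closer to an even division, and the shares of Gm28661 and Gm28437 differed less between libraries.

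**Figure D2:**
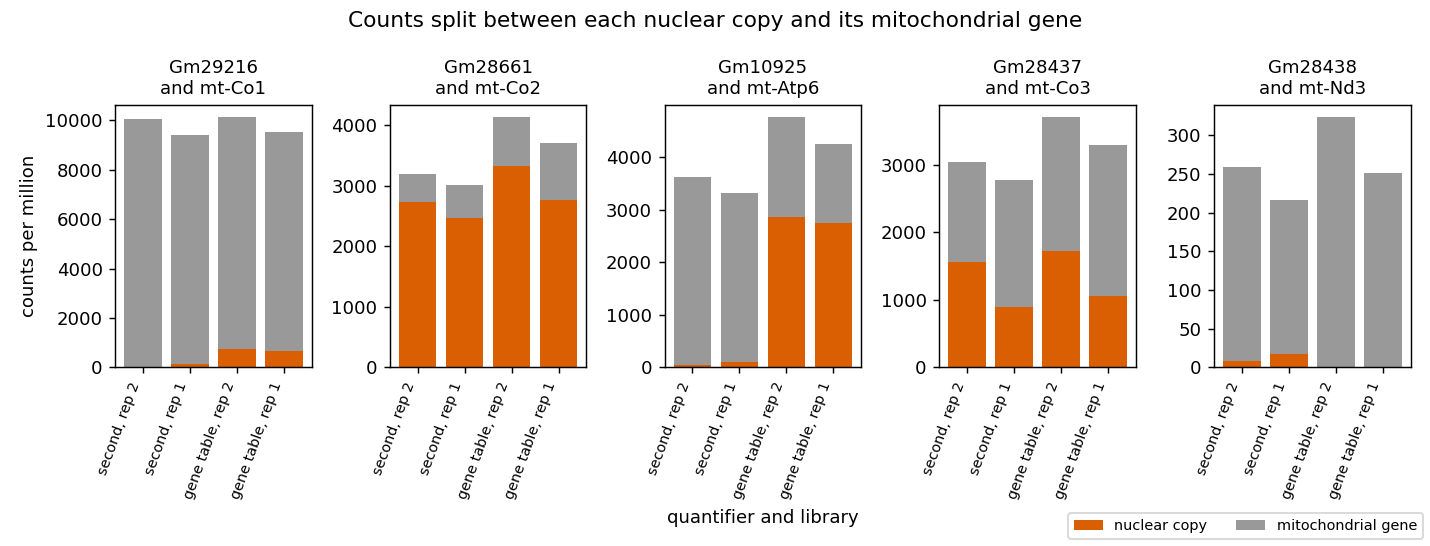
CPM, the counts scaled to the library total (vertical axis, its own scale in each panel) for each pair of a nuclear copy (orange) and its mitochondrial gene (grey), stacked, for the second quantifier and then the gene table, each with replicate 2 left of replicate 1. The orange part of the Gm10925 pair takes 1.36% and 3.18% of the bar in the second quantifier and 60.3% and 64.5% in the gene table, while bar heights differ far less.

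Summed with their copies, the mRNAs took another order. mt-Co2 with Gm28661 was at 7309 TPM in replicate 2 and 6499 TPM in replicate 1 and stood at rank 3 of the 13 mRNAs, against rank 11 and rank 10 for mt-Co2 alone. mt-Atp6 with Gm10925 was at 8458 TPM in replicate 2 and 7485 TPM in replicate 1, at rank 2, against rank 3 and rank 5 for mt-Atp6 alone. mt-Co3 with Gm28437, at 5580 TPM in replicate 2 and 4924 TPM in replicate 1, stood at rank 4, and mt-Co1 with Gm29216, at 8613 TPM in replicate 2 and 7967 TPM in replicate 1, at rank 1. In sum, these 4 pairs took the first 4 ranks in both libraries. The same 4 pairs did so in the second quantifier, where mt-Co2 with its copy was again at rank 3 and mt-Co3 with its copy at rank 4. A sum can only raise the level of a gene that has a copy. The remaining pair, mt-Nd3 with Gm28438, stayed at rank 12 in the gene table in both libraries. A sum counts every read of either locus, so it is an upper value for the mitochondrial mRNA and not a measurement of it. For mt-Co1 the sum also joined unlike effective lengths in the gene table, 392 bases for Gm29216 against 1445 for mt-Co1. There, 7.25% and 6.86% of the pair's counts thus added 1928 and 1702 TPM in replicates 2 and 1. Alone, mt-Co1 lay below mt-Atp6 and mt-Co2 summed with their copies, so the order of ranks 1 to 3 depends on this step.

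The balance between mRNA and the rRNA measured after the reduction step also turned on the copies. The rRNAs together exceeded the 13 mRNAs in TPM 1.84-fold in replicate 2 and 2.04-fold in replicate 1 (1.94 ± 0.14), and with the copies added to the mRNAs 1.24-fold in replicate 2 and 1.43-fold in replicate 1 (1.34 ± 0.133). By the second quantifier the ratio with copies was 1.26 in replicate 2 and 1.43 in replicate 1. Complex IV mRNAs summed to 11090 TPM in replicate 2 and 11250 TPM in replicate 1 alone, and to 21500 TPM in replicate 2 and 19390 TPM in replicate 1 with copies, while the 7 mRNAs of complex I summed to 12100 TPM in replicate 2 and 11200 TPM in replicate 1 whether or not Gm28438 was added. Alone, complex I had the larger sum in replicate 2 and the sums were close in replicate 1, while with copies complex IV had the larger sum in both. The sum of complex IV with copies includes Gm29216 at its shorter length. In the second quantifier, complex I alone had the larger sum in both, 12400 against 9520 TPM in replicate 2 and 11620 against 9848 TPM in replicate 1. With copies, complex IV was again larger there, at 17160 and 16260 TPM against 12460 and 11730 TPM.

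Each gene's TPM was then compared between the quantifiers, as a log2 of the second quantifier over the gene table, with a change called at 2-fold in the same direction in both libraries. Of the 20 members with a mean of at least 5 TPM in either quantifier, 2 were higher in the second quantifier, against 2.00% of the 10467 genes tested, and 3 were lower, against 2.75%. The copies were chosen with their levels known and these are estimates from the same reads, so the counts are a description. mt-Atp6 was higher, at 6757 TPM in replicate 2 and 5940 TPM in replicate 1 in the second quantifier, against 3350 and 2647 TPM in the gene table (log2 ratio of the mean TPMs 1.08). Gm10925, its copy, was lower, at 94.09 TPM in replicate 2 and 196.5 TPM in replicate 1 in the second quantifier, against 5109 and 4838 TPM in the gene table (-5.10). Their sum was at 6494 ± 506 TPM in the second quantifier, against 7972 ± 688 TPM in the gene table (SD, n = 2; log2 -0.30), so the call on mt-Atp6 does not outlast the sum and its direction turns.

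Gm29216 was lower too, at 69.2 TPM in replicate 2 and 490 TPM in replicate 1 in the second quantifier, against 1928 and 1702 TPM in the gene table. Summed with mt-Co1, the difference in TPM was -0.35, which joins the unlike lengths of copy and gene. By counts the quantifiers lay close on this pair. Its sum was at 10040 and 9410 CPM in the second quantifier, against 10120 and 9533 CPM in the gene table (replicates 2 and 1). Gm28438 was at 60.02 TPM in replicate 2 and 110.2 TPM in replicate 1 in the second quantifier, and was listed at 0 in the gene table. mt-Atp8 was the third lower member, at 2.043 TPM in replicate 2 and 31.27 TPM in replicate 1 in the second quantifier, against 2328 and 2361 TPM in the gene table. It shares no window with any other annotated transcript, and it was the only 1 of the 13 mRNAs still past 2-fold once copies were summed. The counts behind these levels were 3 in replicate 2 and 41 in replicate 1 in the second quantifier, against 6194 and 7034 in the gene table. At 204 bases it is the shortest mRNA of the organelle, with effective lengths of 42.97 and 34.81 bases in replicates 2 and 1 in the second quantifier, against 104 bases in the gene table, and the part of its length in the difference was not tested.

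The other short mRNAs were higher in TPM in the second quantifier but lower in counts. mt-Nd4l was at 2832 TPM in replicate 2 and 3144 TPM in replicate 1 in the second quantifier (log2 0.54), although it held fewer counts there, 7847 and 10424, against 9510 and 12517 in the gene table. mt-Nd3 was at 1797 TPM in replicate 2 and 1278 TPM in replicate 1 (0.37), with 7163 and 6513 counts, against 8519 and 7358 in the gene table. Their effective lengths in the second quantifier were 81.08 and 88.05 bases for mt-Nd4l and 116.6 and 135.3 bases for mt-Nd3, against 197 and 248 bases in the gene table. mt-Co2 differed by -0.72, mt-Rnr1 by -0.39, mt-Co3 by -0.31 and mt-Nd1 by -0.22, and the remaining mRNAs and mt-Rnr2 differed by less than mt-Nd1 did. The median over members was -0.15, beside -0.07 over all genes tested.

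**Figure D3:**
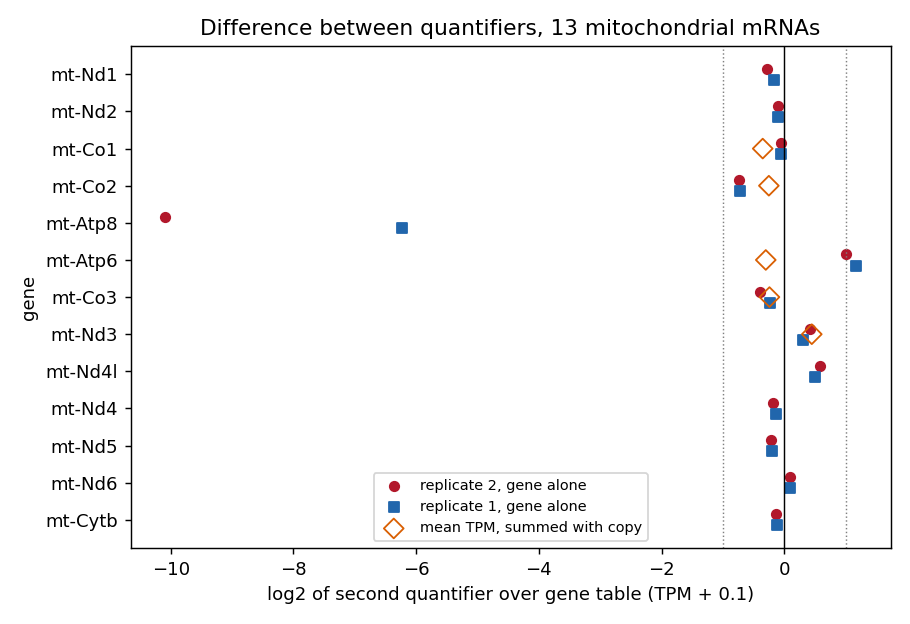
Log2 difference in TPM of the second quantifier over the gene table (horizontal axis, pseudocount of 0.1 TPM, dotted lines at 2-fold) for the 13 mRNAs, with circles for replicate 2, squares for replicate 1 and open diamonds for the mean after summing with the copy. mt-Atp6 lies at 1.01 and 1.17 alone and at -0.30 in sum, and mt-Atp8 lies far to the left.

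The gene table's own posterior SD gives the uncertainty of each assignment. It was above the square root of the count, the size of the counting error, in both libraries for 8 of the 19 members with at least 1000 counts, against 1.90% of the 4898 genes at that depth. Those members were Gm28437, Gm10925, Gm28661, Gm29216, mt-Co2, mt-Atp6, mt-Co3 and mt-Nd4l. For mt-Co2 the posterior SD was 3086 counts in replicate 2 and 2519 in replicate 1, which is 21.2 and 15.2 times the square root of the count. For mt-Atp6 it was 4060 and 3893 counts, and for mt-Co3 4176 and 3427 counts in replicates 2 and 1. All 8 have under 5% unique windows. For mt-Nd3, which is as poor in unique windows, it was 44.38 and 24.57 counts in replicates 2 and 1, below the square root of its count. In the members unique in every window it was at or near 0. The distance between the table's own estimates was wider still for mt-Co2, whose expected count was 21122 in replicate 2 and 27402 in replicate 1, against a posterior mean of 45494 and 45324.

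**Figure D4:**
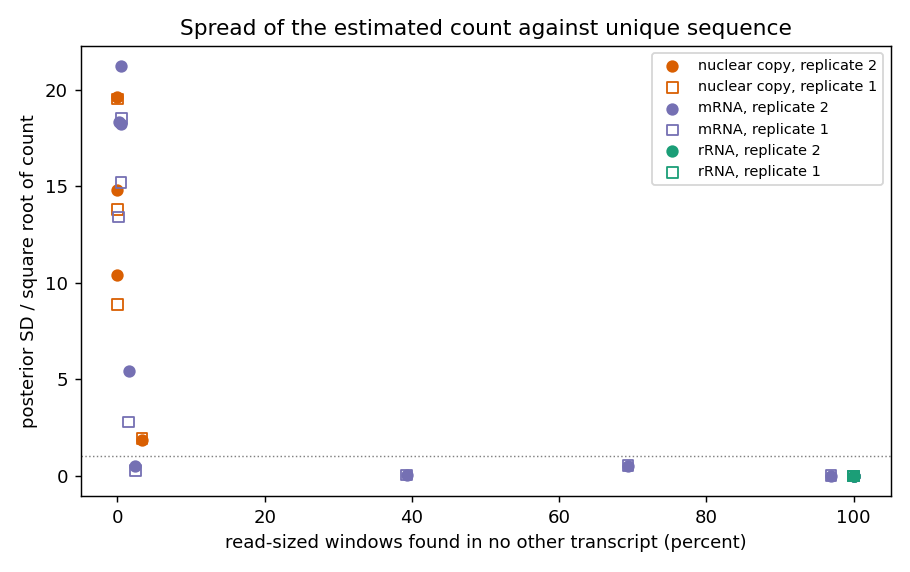
Posterior SD of the count divided by its square root (vertical axis, dotted line at 1) against the percent of windows found in no other transcript (horizontal axis) for the 19 members with counts, with filled circles for replicate 2 and open squares for replicate 1. Every point above the line lies under 5% unique windows, and the highest is mt-Co2 at 21.2.

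Between the libraries, counts were compared as a log2 ratio of replicate 2 to replicate 1 with a counting error. None of the 19 members tested was past 2-fold, where 0.702% of 16383 genes were at least 2-fold higher and 0.983% at least 2-fold lower. In the second quantifier, 4 of 20 members were past 2-fold and all lower in replicate 2, namely Gm29216, Gm10925, Gm28438 and mt-Atp8, where 0.692% of 18349 genes were at least 2-fold higher and 1.23% at least 2-fold lower. The farthest member in the gene table was Gm28437 at 0.70 ± 0.01 (counting SE), and its partner mt-Co3 lay on the other side at -0.18 ± 0.01. mt-Atp6 was at 0.33, mt-Co2 at -0.23, mt-Nd3 at 0.36 ± 0.02 and mt-Nd4l at -0.25 ± 0.02. The counting SE leaves out the uncertainty of assignment. By the posterior mean, Gm28437 was at 0.28, mt-Co3 turned to 0.05 and mt-Co2 to 0.15. By it mt-Atp6 was at 0.29, mt-Nd3 at 0.36 and mt-Nd4l at -0.21, so these kept their direction. Of the 13 mRNAs, 8 were higher and 5 lower in replicate 2, with a median of 0.12, beside -0.00 over all genes tested (quartiles -0.13 to 0.12).

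Summing narrowed the spread of 4 paired genes but not that of all 13 mRNAs, which ran from -0.25 to 0.36 both alone and summed. mt-Co1, mt-Co2, mt-Atp6 and mt-Co3 ranged from -0.23 to 0.33 alone and from 0.09 to 0.17 when summed with their copies. In the second quantifier their sums ranged from 0.08 to 0.13. The remaining pair, mt-Nd3 with Gm28438, stayed at 0.36 in the gene table, where the copy held no counts. mt-Co2 moved to 0.15 and mt-Co3 to 0.17, so both turned from lower to higher in replicate 2. With the copies summed, 10 of 13 mRNAs were higher in replicate 2, with a median of 0.15, and 11 were once Gm10222 was also added to mt-Nd4l. The 5 mRNAs unique in every window among annotated transcripts lay between -0.09 and 0.20. Of them, mt-Nd5 was at 0.20, mt-Cytb at 0.14, mt-Nd1 at 0.12, mt-Atp8 at -0.04 ± 0.03 and mt-Nd6 at -0.09 ± 0.04. The rRNAs were slightly lower in replicate 2, with mt-Rnr1 at -0.07 and mt-Rnr2 at -0.10. Scaling by spike-ins moved the median of all genes to -0.10, and by it 7 of 13 mRNAs alone were higher in replicate 2, since mt-Co1 turned to -0.02, while the 4 summed pairs lay between -0.02 and 0.06. The copy Gm10925, at 0.06, turned to -0.04 as well.

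**Figure D5:**
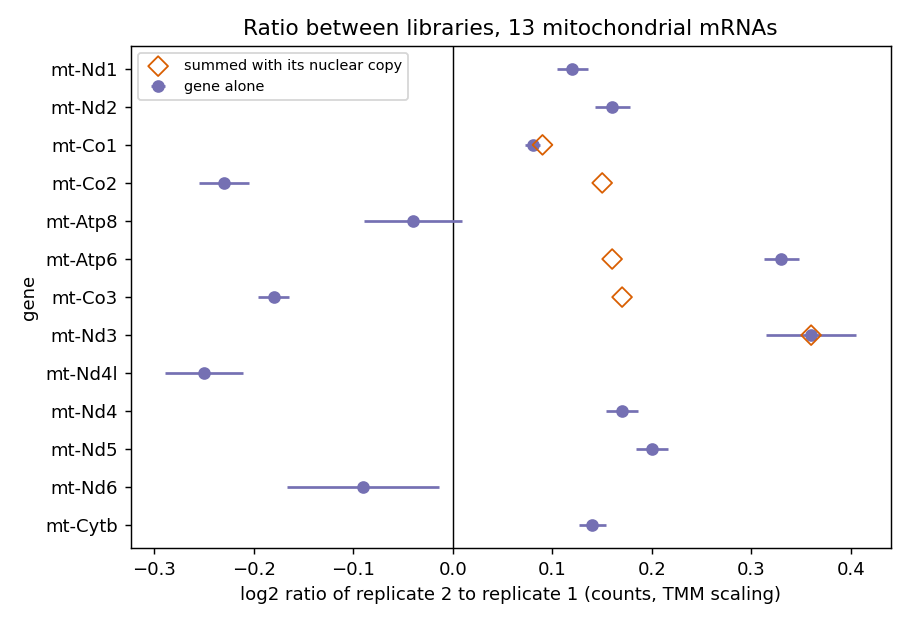
Log2 ratio of replicate 2 to replicate 1 in counts (horizontal axis) for the 13 mRNAs of the gene table, with filled circles for the gene alone, bars for the 95% counting interval, and open diamonds for the gene summed with its copy. The diamonds of mt-Co1, mt-Co2, mt-Atp6 and mt-Co3 lie between 0.09 and 0.17, where the circles spread from -0.23 to 0.33.

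Next to the members, Gm10222, which was singled out after its values were seen, showed the same kind of instability. It held 2670 counts (538 TPM) in replicate 2 and 0 in replicate 1, and 0 in both libraries in the second quantifier. Its posterior mean was 2757 ± 529 counts in replicate 2 and 457 ± 312 in replicate 1 (posterior SD), and its partner mt-Nd4l held 9510 counts in replicate 2 and 12517 in replicate 1. Summed, the pair held 12180 counts in replicate 2 and 12517 in replicate 1, a log2 ratio of 0.11 ± 0.02 (counting SE) against -0.25 for mt-Nd4l alone. In the second quantifier the ratio was -0.22 alone and in sum. Gm28439, the copy of mt-Nd4, was listed at 0 in both libraries of the gene table.

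The mitochondrial genes are transcribed, cut and modified by nuclear-encoded proteins, which were described from 3 lists with 56 genes, of which 55 matched the annotation. All 55 reached at least 1 TPM in both libraries, as 56.2% of the 22028 protein-coding genes did, and none was past 2-fold between libraries. The transcription and replication list of 18 genes had median levels of 6.75 TPM (replicate 2) and 6.97 TPM (replicate 1), and was led by Polg, the mitochondrial DNA polymerase, at 28.2 ± 0.905 TPM. Polrmt, the mitochondrial RNA polymerase, was at 21.9 ± 2.64 TPM, Mterf3, a negative regulator of transcription in mice, at 21.2 ± 2.62 TPM and Ssbp1, a single-strand DNA binding protein, at 20.1 ± 1.5 TPM. These levels are far below those of the mRNAs the enzymes make, and protein-coding genes at 1 TPM or more had medians of 12.4 TPM (replicate 2) and 12.3 TPM (replicate 1).

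The list of RNA cleavage, polyadenylation, stability and decay had 19 matched genes, with medians of 14.4 TPM (replicate 2) and 14.0 TPM (replicate 1). It was led by Slirp, which with Lrpprc stabilises mitochondrial mRNAs, at 55.3 ± 6.58 TPM. Hsd17b10, a dehydrogenase that is also a subunit of the enzyme that cuts the 5′ ends of tRNAs, was at 43.7 ± 0.573 TPM. Grsf1, an RNA granule protein, was at 41.2 ± 0.764 TPM and Rexo2, an oligoribonuclease, at 40.4 ± 1.24 TPM. In the list of rRNA and tRNA modification, with 18 genes and medians of 8.87 TPM (replicate 2) and 8.46 TPM (replicate 1), the highest were the methyltransferase Nsun2 at 28.2 ± 1.22 TPM, the CCA-adding enzyme Trnt1 at 19.9 ± 3.42 TPM, Mettl17 at 17.4 ± 2.58 TPM and the pseudouridine synthase Pus1 at 16.0 ± 1.35 TPM. Log2 ratios of replicate 2 to replicate 1 lay between -0.30 and 0.34 over the 3 lists, with medians of -0.01, 0.03 and 0.01.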

How the data were processed

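Expected counts, TPM and FPKM per gene, with a posterior mean and SD of each count, were in the tables that the authors deposited per library. The library kit is strand-specific, per the labels. A second transcript table deposited by the authors held estimated counts and TPM, called the second quantifier, and was summed here per gene. Values rest on mm10 and GENCODE M21, per the library notes. What quantifier made each table is not given in the sources used here. The deposited effective length was the transcript length less 100 bases.

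The members and the 3 nuclear lists were chosen with earlier results of these data known. Every mitochondrial mRNA, rRNA and copy was named, and of each list the 4 highest by mean TPM, any below 1 TPM and any past 2-fold. Shares use summed counts of annotated genes, 26322473 in replicate 2 and 29204658 in replicate 1. Ratios use rounded expected counts, TMM scaling (edgeR 4.0.16, R 4.3.3), a prior count of 0.5, a mean count of at least 20 and Poisson errors. The calculation was tested on simulated counts drawn separately for each gene. That simulation holds no division of reads between identical sequences, so it does not bear on the copies and their partners. Quantifier differences are log2 of TPM plus 0.1. A lone library on each side allows no p-value. Copies were paired with genes by ungapped alignment of annotated transcripts. Tables were handled with Python 3.11.15, pandas 2.3.3 and scipy 1.17.1. FPKM and DESeq2 1.42.0 size factors were alternatives, and the closing section gives those that moved a value most.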

Additional observations from a re-analysis of the deposited data

How the results depend on the processing

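Only 2 libraries of 1 group were measured, with no test, and copies of identical sequence cannot be told apart at any depth. No paired analysis was possible because there is only 1 group. By TPM, the mRNAs held 3.16%, the rRNAs 6.12% and the copies 1.43%. By the second quantifier's counts, the rRNAs held 6.40% and the copies 0.403%. The second quantifier gave the copy 0.945% of the pair for Gm29216, 83.8% for Gm28661, 2.27% for Gm10925 and 5.47% for Gm28438, and the posterior mean, an estimate added after seeing the data, gave 58.2% for Gm28661, 59.3% for Gm10925 and 0.382% for Gm28438 (means of both libraries). Members past 2-fold between libraries numbered 0 in the gene table and 4 in the second quantifier. Among all genes, 115 were higher and 161 lower in replicate 2, against 517 and 681 at a mean count of 5, 2657 and 3387 with no filter, and 127 and 226 in the second quantifier. Members higher in the second quantifier numbered 2, but 1 by CPM and 0 with copies summed, and members lower numbered 3, but 1 with copies summed. There mt-Atp6 reversed, at -0.30. Among all genes, 209 were higher and 288 lower in the second quantifier, against 342 and 151 by CPM, 2979 and 654 with no filter, and 884 and 477 at 1 TPM. The cause was not tested. The median ratio of the 13 mRNAs stayed above 0 under all 9 alternatives, which include adding Gm10222 and Gm28439 to the sums, chosen after seeing the data, lowest at 0.01 with spike-in scaling. TPM rescaled without small structural RNA was higher for the 19 members above 0, for example 13120 for mt-Co1.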
